A study of Mus musculus with 10 samples.

Results

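Collagen genes encode the chains of the triple-helical proteins that make up much of the extracellular matrix. The genes described here are all those whose symbol names a collagen chain and whose value was above 0 in at least 1 of 10 mouse libraries, which gave 39 genes of 19025, held in 43 transcript rows. Fibrillar collagens such as types I, III and V build the fibrils of connective tissue and are the main products of fibroblasts. Type IV collagen forms the sheet of basement membranes, type VI forms beaded filaments, the multiplexins (types XV and XVIII) sit at basement membrane zones, and the FACIT collagens bind to the surface of fibrils. Lymphocytes are not known as matrix producers; they meet collagen mainly through receptors such as collagen-binding integrins.

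RNA from 5 groups of mouse cells was sequenced, with 2 libraries a group, numbered as experiments 1 and 2 in the labels. ES cells were of the B6N-22 line, grown with leukemia inhibitory factor and serum on feeder fibroblasts, that is, mouse embryonic fibroblasts whose division had been stopped with mitomycin C. Th2 + TSA cells were splenic CD4 T cells cultured for 5 days with 15 ng/ml IL-2 and 10 ng/ml IL-4, with 10 nM trichostatin A (TSA), an inhibitor of histone deacetylases, added on day 2 for 3 days. Th2 cells had the same culture without TSA. CD4 T cells and B220 B cells were taken from the spleens of mice aged 6 to 8 weeks, with magnetic beads and a stated purity above 98%. All cells were of the C57BL/6 strain, and all libraries were made from total RNA with a TruSeq RNA kit. The ES line is 1 line, and the ES labels name no step that removes the feeders.

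Values are FPKM, fragments scaled by transcript length and library total, and summed to between 405438.5 and 521872.1 a library. Marker genes followed the labels: Pou5f1, a pluripotency factor, had 620.31 and 619.91 FPKM in ES libraries, and at most 1.74 FPKM in any other. Cd3e and Cd4 were high in the T cell libraries, and Cd79a reached 860.42 FPKM in B cells. The 2 ES libraries differed from each other by no more than sampling noise, as did the 2 CD4 T and the 2 B libraries, so each of these pairs counts as 1 sample; both values are still printed. Whether the 2 libraries of a group are from different mice or cultures is not stated, so p-values reflect only how these libraries vary, and that variation could be technical. CD4 T libraries also held B cell markers, summing over 5 genes to 221.89 and 225.78 FPKM, and myeloid markers, summing over 9 genes to 478.31 and 474.41 FPKM. In bulk RNA, fewer cells of a type and less RNA per cell cannot be told apart.

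Collagen RNA was concentrated in the ES libraries. There the 39 genes summed to 691.15 and 693.92 FPKM, or 0.1746% and 0.1752% of all FPKM. The sums were 9.51 and 15.08 FPKM with Th2 + TSA, 7.42 and 9.4 FPKM in Th2, 20.21 and 20.41 FPKM in CD4 T, and 12.23 and 12.6 FPKM in B cells. A group mean of 1 FPKM or more was reached by 22 collagen genes in ES cells, 4 with Th2 + TSA, 4 in Th2, 6 in CD4 T and 6 in B cells. Of the 39 genes, 28 were highest in ES cells and 11 in a lymphocyte group. In ES cells 15 genes had 5 FPKM or more, and in the lymphocyte groups 1 gene did.

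**Figure D1:**
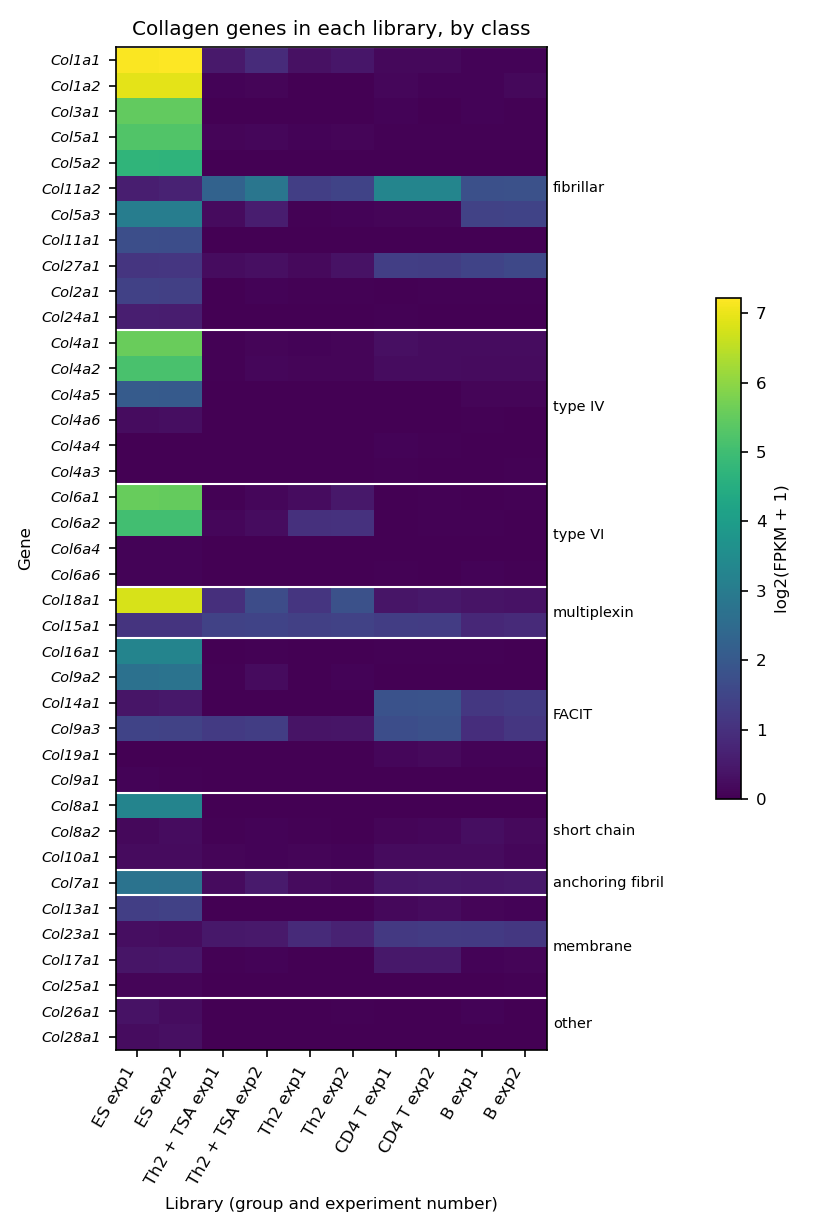
Each row is a collagen gene and each column a library, grouped by class; the colour gives log2(FPKM + 1). The 2 ES columns hold the bright rows, led by Col1a1, Col1a2 and Col18a1, and Col11a2 is the brightest row in CD4 T cells.

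The fibrillar genes of connective tissue led in ES cells. Col1a1, a chain of type I collagen (chromosome 11, 94936224 to 94953042, GRCm38), had 145.45 and 148.49 FPKM in ES libraries, 0.42 and 0.86 FPKM in Th2 + TSA, 0.26 and 0.36 FPKM in Th2, 0.12 and 0.11 FPKM in CD4 T, and 0.06 and 0.05 FPKM in B libraries. Its partner Col1a2 (chromosome 6, 4505618 to 4541543) had 120.39 and 120.26 FPKM in ES libraries, 0.04 and 0.07 FPKM in Th2 + TSA, 0 and 0 in Th2, 0.09 and 0.05 FPKM in CD4 T, and 0.05 and 0.12 FPKM in B libraries. For both genes the ES libraries stood far above every lymphocyte library. The Col1a1 to Col1a2 ratio was 1.21 and 1.23 in ES libraries. Col3a1, the chain of type III collagen, had 43.64 and 44.06 FPKM in ES libraries, was listed at 0 in all 4 Th2 and Th2 + TSA libraries, and was at most 0.06 FPKM in CD4 T and B cells. Type V chains, which start fibril formation, followed with Col5a1 at 37.12 and 37.58 FPKM and Col5a2 at 25.24 and 24.87 FPKM in ES libraries. Both were at 0.09 FPKM or less in every lymphocyte library. Col3a1 and Col5a2 are neighbours on chromosome 1, 24624 bases apart. Col5a3, the less common type V chain, had 7.30 and 7.38 FPKM in ES, 0.15 and 0.49 FPKM in Th2 + TSA, 0.02 and 0.04 FPKM in Th2, 0.07 and 0.08 FPKM in CD4 T, and 1.69 and 1.74 FPKM in B libraries, so B cells were the lymphocyte group that held it at 1 FPKM or more.

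Type VI and type IV chains came in pairs. Col6a1 had 45.36 and 45.04 FPKM and Col6a2 31.83 and 31.99 FPKM in ES libraries. These chains of the beaded filament lie 85161 bases apart on chromosome 10, and in CD4 T and B cells neither passed 0.03 FPKM. Col4a1 had 46.89 and 46.40 FPKM and Col4a2 34.57 and 34.84 FPKM in ES libraries, against at most 0.22 FPKM for either gene in any lymphocyte library. They encode the chains of the common basement membrane network, and their annotated spans on chromosome 8 run in opposite directions and overlap by 85 bases. The ratio of the first to the second chain in ES libraries was 1.43 and 1.41 for type VI and 1.36 and 1.33 for type IV. The other basement membrane chains were lower: Col4a5 had 3.20 and 3.10 FPKM in ES libraries, Col4a6 0.19 and 0.21 FPKM, and Col4a3 and Col4a4 at most 0.01 FPKM there.

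Col18a1, whose protein gives rise to the fragment endostatin, came after the type I chains in ES cells, with 109.12 and 108.66 FPKM. Its second transcript row had 93.28 and 92.76 FPKM. In lymphocytes the first row had 0.95 and 2.22 FPKM in Th2 + TSA, 1.15 and 2.44 FPKM in Th2, 0.32 and 0.37 FPKM in CD4 T, and 0.30 and 0.27 FPKM in B libraries. A further 4 genes in other classes were at 5 FPKM or more in ES cells. Col16a1, a FACIT chain, had 8.65 and 8.60 FPKM in ES libraries and at most 0.03 FPKM in any lymphocyte library. Col8a1, a short-chain collagen of endothelial and smooth muscle matrix, had 8.53 and 8.59 FPKM there and was listed at 0 in all 8 lymphocyte libraries. Col7a1, the chain of the anchoring fibrils of skin, had 5.67 and 5.64 FPKM, and Col9a2, a FACIT chain known from cartilage, had 5.53 and 5.68 FPKM in ES libraries. Neither passed 0.44 FPKM in a lymphocyte library. Between 1 and 5 FPKM in ES cells were also Col11a1 at 2.34 and 2.26 FPKM, Col2a1 at 1.64 and 1.60 FPKM, both fibrillar chains of cartilage, and the membrane collagen Col13a1 at 1.55 and 1.64 FPKM.

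Upstream sequence is shown for 4 of these genes, because Col3a1, Col6a2, Col7a1 and Col8a1 were those at 5 FPKM or more in ES cells whose 250 bases before the RefSeq start (GRCm38.p6) met no annotated exon or gene. Capitals mark CCAAT and GGGCGG, read on either strand; each sequence runs 5′ to 3′ on the gene's own strand.
Col3a1, chr1:45311288-45311537, plus strand: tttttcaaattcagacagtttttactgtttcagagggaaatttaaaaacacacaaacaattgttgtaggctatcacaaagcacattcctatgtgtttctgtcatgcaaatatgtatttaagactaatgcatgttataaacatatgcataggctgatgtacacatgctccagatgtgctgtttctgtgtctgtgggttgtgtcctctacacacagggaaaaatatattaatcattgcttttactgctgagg
Col6a2, chr10:76623631-76623880, minus strand: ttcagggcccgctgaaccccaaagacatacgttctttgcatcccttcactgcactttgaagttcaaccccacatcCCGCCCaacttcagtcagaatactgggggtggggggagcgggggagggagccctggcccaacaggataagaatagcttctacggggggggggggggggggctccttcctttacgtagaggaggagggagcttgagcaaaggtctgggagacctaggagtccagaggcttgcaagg
Col7a1, chr9:108953336-108953585, plus strand: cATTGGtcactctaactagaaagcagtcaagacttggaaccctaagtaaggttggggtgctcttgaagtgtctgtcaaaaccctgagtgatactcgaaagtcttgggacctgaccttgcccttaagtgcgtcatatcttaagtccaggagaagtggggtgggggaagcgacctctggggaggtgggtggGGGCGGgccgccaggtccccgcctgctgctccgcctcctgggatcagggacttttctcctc
Col8a1, chr16:57754738-57754987, minus strand: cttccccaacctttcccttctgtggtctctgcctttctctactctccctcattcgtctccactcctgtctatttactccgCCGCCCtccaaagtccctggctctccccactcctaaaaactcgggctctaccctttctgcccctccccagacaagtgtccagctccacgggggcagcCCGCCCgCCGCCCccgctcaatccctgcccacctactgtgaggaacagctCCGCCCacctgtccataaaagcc
These windows had little in common. Col3a1 held neither motif and no CG pair, with a GC content of 35.2%, whereas Col8a1 held 4 copies of GGGCGG and 10 CG pairs, with a GC content of 60.8%. Col6a2 held 1 copy of GGGCGG in the window shown, and Col7a1 held 1 of each motif. Another Col6a2 window, not shown because it met an annotated gene, held 3 copies of GGGCGG. Of 32851 RefSeq promoter windows of this length, 33.8% held CCAAT and 32.7% held GGGCGG; among 35 windows of the 32 collagen genes matched in the table, the shares were 37.1% and 60%. Without an entry there were Col1a1, Col2a1, Col4a3, Col5a2, Col9a3, Col14a1 and Col26a1. The letters are a description of the windows and were not tied to binding.

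The first comparison asks which collagens set ES libraries apart from lymphocytes. By size (a log2 difference of 2 or more, with the higher group at 5 FPKM or above), 15 of the 25 collagen genes that passed the low-value filter were higher in ES than in CD4 T cells, and 1, Col11a2, was lower; over all 12907 genes these shares were 11.9% and 10.8%. The median log2 difference was 2.96 over the 25 genes and 0.16 over all genes. Against B cells 14 of 25 were higher and 0 lower, with shares over all genes of 13.4% and 9.45%; Col5a3 was the gene that no longer met the size. These comparisons have 1 sample a side and no test, and share the ES libraries. Of the 25 genes, 16 passed the filter through the ES libraries alone and so had to be higher there; the 14 that did not pass had no comparison.

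Against Th2 cells, which have replicates, limma could test 18 of the 39 genes. It called 15 higher in ES cells and 2 lower (Benjamini-Hochberg adjusted p below 0.05), where 43.1% of all 12367 genes tested were higher and 19% lower. Of the 18 genes, 10 had passed the filter through the ES libraries alone, and all 10 are among the 15, so their direction was fixed by the filter. Of those calls over all genes, 69.4% were in the higher direction, against 58.9% after median-ratio scaling and 51.0% after quantile normalization. Col1a1 was higher by 6.82 ± 0.202 on the log2 scale (± SE). It is 1 of the 10 genes that passed through ES alone, so this direction was fixed. Col18a1 and Col6a2 are not among those 10. Col18a1 was higher by 5.34 ± 0.489 (limma adjusted p = 0.00491). Col6a2 was higher by 4.02 ± 0.070 (limma adjusted p = 0.000145). The 2 genes lower in ES cells were Col23a1 by a log2 difference of -0.53 ± 0.084 (limma adjusted p = 0.016) and Col15a1 by -0.30 ± 0.053 (limma adjusted p = 0.0202). The Col15a1 call was lost without Th2 replicate 1 (adjusted p = 0.0625) and without Th2 replicate 2 (adjusted p = 0.084), and over all alternatives its adjusted p ran between 0.000262 and 0.084. Col27a1 and Col9a3 were called higher in ES cells, at 0.86 and 1.04, and both turned to the other sign under quantile normalization.

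Fibroblast markers other than collagens were high in the same ES libraries. The 30 genes of the list summed to 2150.26 and 2150.27 FPKM in ES libraries, 12.66 and 16.89 FPKM with Th2 + TSA, 10.64 and 14.56 FPKM in Th2, 12.85 and 13.67 FPKM in CD4 T, and 9.71 and 9.64 FPKM in B cells. In ES cells 29 of the 30 had 1 FPKM or more, compared with 4, 4, 3 and 2 of them in those lymphocyte groups. Fn1, which encodes the matrix protein fibronectin, had 363.15 and 363.12 FPKM in ES libraries, and Tagln, an actin-binding protein of contractile cells, had 295.57 and 292.76 FPKM. Bgn, a proteoglycan that binds type I fibrils, had 254.03 and 256.40 FPKM in ES libraries and was listed at 0 in all 4 Th2 and Th2 + TSA libraries. Thbs1, Acta2 and Fbln2 completed the 6 highest, at 247.16 and 249.44, 191.45 and 193.95, and 168.89 and 167.94 FPKM in ES libraries. By size, 25 of the 29 fibroblast markers that passed the filter were higher in ES than in CD4 T cells, and 25 of 29 than in B cells, beside 11.9% and 13.4% of all genes. Of the 29, 22 had passed through the ES libraries alone and so had to be higher there.

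A second list bears on the type IV chains, which the endoderm lineage of the early embryo also makes. Extraembryonic endoderm markers summed to 158.20 and 158.77 FPKM in ES libraries, where 9 of the 13 had 1 FPKM or more, led by Lamc1 at 59.92 and 59.64 FPKM, Lamb1 at 56.10 and 56.72 FPKM and Lama1 at 13.67 and 13.57 FPKM, the chains of the laminin that shares the basement membrane with type IV collagen. Lamc1 was not confined to ES cells: it had 14.56 and 14.13 FPKM in Th2 + TSA and 10.03 and 10.23 FPKM in Th2 libraries. In CD4 T libraries it had 2.63 and 2.57 FPKM, and in B libraries 7.99 and 7.73 FPKM. Afp, the fetal serum protein of visceral endoderm, was near 0, at 0.01 and 0.00 FPKM in ES libraries. Sox17, Foxa2 and Ttr, the other members under 1 FPKM in ES libraries, were at 0.43 FPKM or less there. Thbd had 12.25 and 11.93 FPKM and Dab2 had 6.99 and 7.29 FPKM in ES libraries. The transcription factors Gata4 and Gata6, named here after their values were seen, had 3.1 and 3.23 FPKM and 2.01 and 2.31 FPKM there. The 10 pluripotency markers summed to 2923.15 and 2926.67 FPKM in the same libraries. No library of feeder fibroblasts alone was analysed, so collagen RNA of the ES cells and of the feeders cannot be told apart for any single gene.

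**Figure D2:**
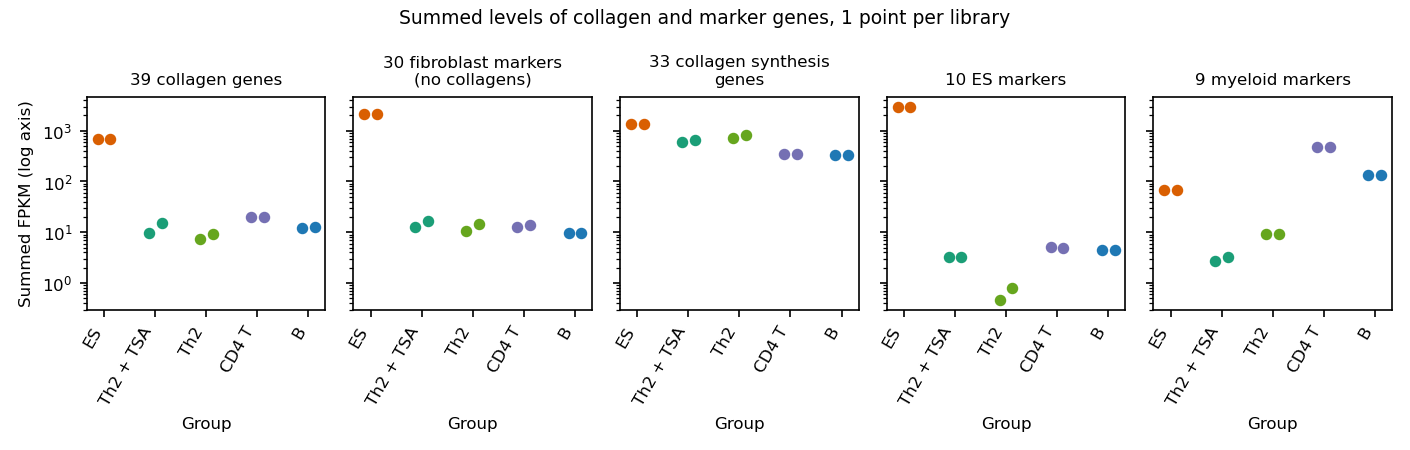
Each point is the summed FPKM of a gene list in 1 library, on a log axis, by group. Collagen genes, fibroblast markers and ES markers all have the ES libraries far above the rest. The sums of collagen synthesis genes differ much less between groups, and myeloid markers are highest in CD4 T cells. The medians of the synthesis list differ more. They were 16.285 FPKM in ES, 0.285 in Th2 + TSA, 0.34 in Th2, 0.655 in CD4 T and 0.38 in B cells.

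Genes for the enzymes and chaperones that make and process collagen were measured as well. Of 33 such genes in the files, 30 passed the filter, and by size 18 were higher in ES than in CD4 T cells, 21 higher in ES than in B cells, and 0 lower in either, beside 11.9% and 13.4% of all genes higher and 10.8% and 9.45% lower. Of the 30, 11 had passed through the ES libraries alone. Serpinh1, the collagen-specific chaperone HSP47, had 117.33 and 115.96 FPKM in ES libraries, and at most 1.18 FPKM in any lymphocyte library. Sparc, a collagen-binding matrix protein, had 213.03 and 213.37 FPKM in ES libraries and at most 0.74 FPKM elsewhere, and Pcolce, which enhances the trimming of procollagen, had 90.90 and 90.66 FPKM against at most 6.25 FPKM. Enzymes with wider roles in the secretory pathway were high in all groups. P4hb, the disulfide isomerase subunit of prolyl hydroxylase, had 246.30 and 244.86 FPKM in ES, 187.69 and 211.38 FPKM in Th2 + TSA, 231.69 and 273.70 FPKM in Th2, 76.95 and 76.80 FPKM in CD4 T and 67.95 and 66.47 FPKM in B libraries. Ppib, a prolyl isomerase, was highest in Th2 cells at 376.86 and 423.71 FPKM. Glt25d1, which adds galactose to collagen, was highest in B cells at 79.50 and 79.77 FPKM. In Th2 over CD4 T cells 5 of 27 were higher and 11 lower by limma, P4hb and Ppib among the higher ones; over all genes 16.9% were higher and 38.1% lower, so these counts are near the background.

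In all, 9 collagen genes reached 1 FPKM in at least 1 lymphocyte group. Of these, 6 were also at 1 FPKM or more in ES cells, and 3, Col11a2, Col14a1 and Col23a1, were not. Col11a2 was the gene at 1 FPKM or more in Th2, CD4 T and B cells alike. Col11a2, a fibrillar chain of type XI collagen known from cartilage (chromosome 17, 34038919 to 34066684), had 0.53 and 0.62 FPKM in ES, 3.80 and 6.16 FPKM in Th2 + TSA, 1.53 and 1.73 FPKM in Th2, 8.71 and 8.69 FPKM in CD4 T, and 2.40 and 2.44 FPKM in B libraries. No 2 groups overlapped, and CD4 T cells stood at 15.1 times the ES mean and 3.6 times the B mean. Its partner chain Col11a1 was listed at 0 in all 8 lymphocyte libraries. The nearest gene, Rxrb, ends 515 bases before Col11a2 in the same direction and had 25.29 and 25.7 FPKM in ES, 23.46 and 24.67 FPKM in Th2 + TSA, 23.28 and 25.76 FPKM in Th2, 40.84 and 40.84 FPKM in CD4 T, and 42.1 and 44.08 FPKM in B libraries; its part in the Col11a2 values was not tested.

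Other members known from cartilage or fibril surfaces were low but present. Col9a3, a FACIT chain of type IX collagen (chromosome 2, 180598102 to 180622192), had 1.73 and 1.70 FPKM in ES, 1.34 and 1.48 FPKM in Th2 + TSA, 0.31 and 0.34 FPKM in Th2, 2.26 and 2.38 FPKM in CD4 T, and 0.94 and 1.20 FPKM in B libraries. It shares 234 of its 3046 exon bases with Tcfl5 on the other strand, which had 21.41 and 22.02 FPKM in ES libraries and at most 0.08 FPKM in any lymphocyte library. Strand use is not stated, so the ES value of Col9a3 is uncertain. Its partner chains Col9a1 and Col9a2 were at 0.16 FPKM or less in every lymphocyte library. Col14a1, a FACIT chain, had 0.34 and 0.39 FPKM in ES, 2.54 and 2.62 FPKM in CD4 T, and 1.26 and 1.34 FPKM in B libraries, and was listed at 0 in the 4 Th2 and Th2 + TSA libraries.

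Some members were shared by both freshly isolated lymphocyte types. Col27a1, a fibrillar chain, had 1.16 and 1.20 FPKM in ES, 0.18 and 0.23 FPKM in Th2 + TSA, 0.13 and 0.27 FPKM in Th2, 1.54 and 1.48 FPKM in CD4 T, and 1.75 and 1.94 FPKM in B libraries. Col23a1, a membrane collagen, had 0.21 and 0.19 FPKM in ES, 0.39 and 0.41 FPKM in Th2 + TSA, 0.83 and 0.63 FPKM in Th2, 1.3 and 1.37 FPKM in CD4 T, and 1.36 and 1.24 FPKM in B libraries. The CD4 T and B libraries overlapped for Col23a1. Col15a1, the other multiplexin, was the most even member: 1.12 and 1.13 FPKM in ES, 1.66 and 1.76 FPKM in Th2 + TSA, 1.56 and 1.67 FPKM in Th2, 1.46 and 1.42 FPKM in CD4 T, and 0.75 and 0.81 FPKM in B libraries.

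Between CD4 T and B cells, 0 of 25 collagen genes met the size in either direction, where 2.56% of all genes were higher and 1.7% lower; the 2 groups have 1 sample each and no test. Col5a3 had 0.07 and 0.08 FPKM in CD4 T libraries and 1.69 and 1.74 FPKM in B libraries, a B to CD4 T ratio of 22.9 at a low level. Col14a1 in CD4 T cells stood at 1.98 times its B level. Myeloid markers were in the same order as Col11a2 and Col14a1 between these groups, summing to 478.31 and 474.41 FPKM in CD4 T and 132.73 and 134.01 FPKM in B libraries. Platelet and megakaryocyte markers summed to 14.64 and 14.69 FPKM in CD4 T and 12.07 and 11.99 FPKM in B libraries. The part of such cells in these collagen values was not tested.

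**Figure D3:**
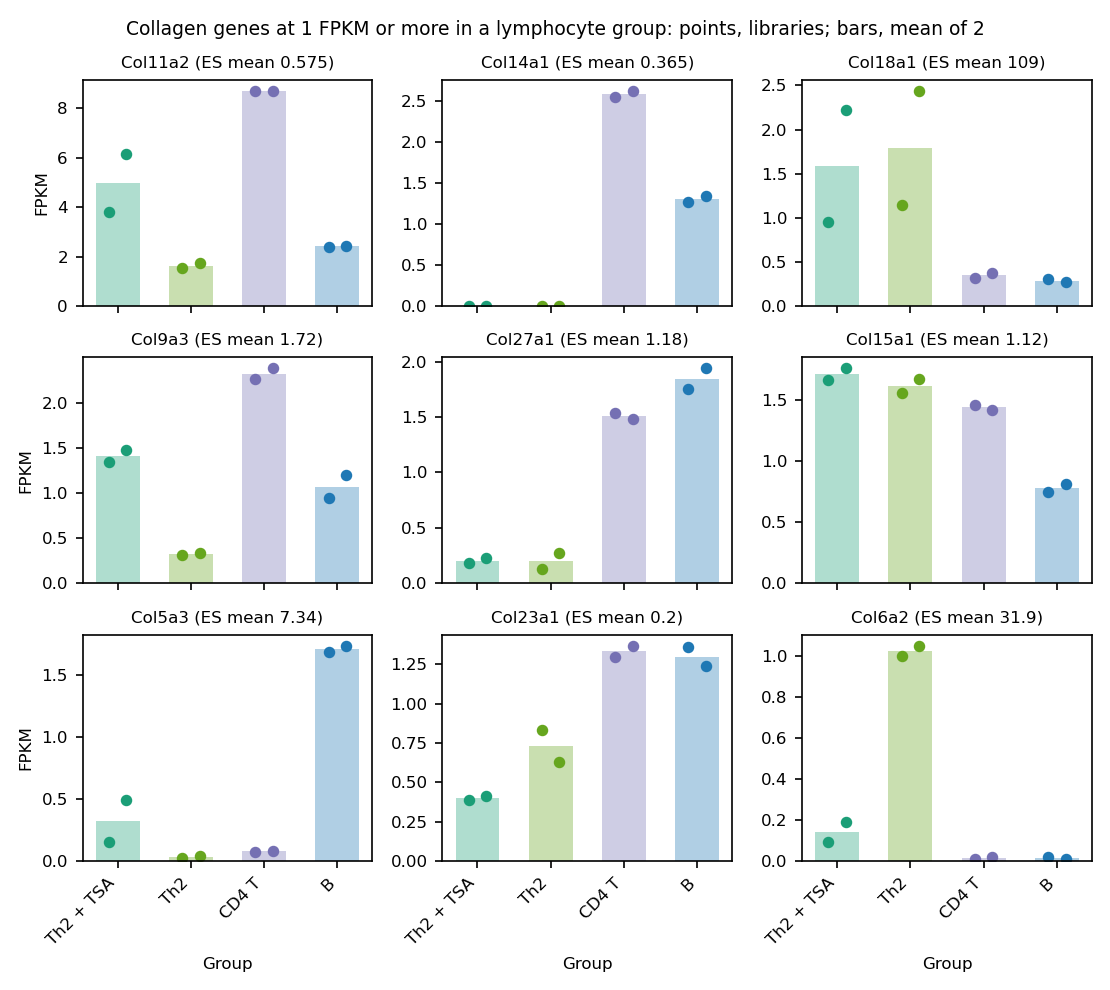
FPKM of the 9 collagen genes at 1 FPKM or more in a lymphocyte group; points are libraries, bars the mean of 2, and each panel gives the ES mean. Col11a2, Col9a3 and Col14a1 are highest in CD4 T cells, Col5a3 in B cells and Col6a2 in Th2 cells.

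The next comparison sets Th2 cultures against CD4 T cells. Values were assigned to rows differently in the Th2 and the CD4 T libraries, so culture and processing cannot be told apart here. The same holds for cell type and processing in ES over Th2. Among the 18 collagen genes tested by limma, 5 were lower and 1 higher in Th2 than in CD4 T cells. Of all 12367 genes, 16.9% were higher and 38.1% lower. Calls over all genes were 30.7% in the higher direction, against 41.5% after median-ratio scaling and 48.3% after quantile normalization. Col9a3 was lower by 1.33 on the log2 scale (SE 0.052, limma adjusted p = 0.00184). The log2 difference was -1.07 for Col27a1 (SE 0.089, limma adjusted p = 0.00562) and -1.88 for Col11a2 (SE 0.296, limma adjusted p = 0.0178). In FPKM, the CD4 T mean was 7.14, 7.55 and 5.34 times the Th2 mean for these 3 genes. Col11a2 missed the threshold without Th2 replicate 1 (adjusted p = 0.0849) and without Th2 replicate 2 (adjusted p = 0.0814); over all alternatives its adjusted p ran between 2.02e-05 and 0.0849. Col23a1 at -0.44 (SE 0.084, limma adjusted p = 0.0276) and Col4a1 at -0.18 (SE 0.037, limma adjusted p = 0.0325) were also called lower, and both turned to the other sign under quantile normalization. Col4a1 lost its call without either Th2 replicate as well, at adjusted p = 0.144 and 0.119 within a range of 0.00358 to 0.439 over all alternatives, and its levels were 0.05 and 0.07 FPKM in Th2 and 0.22 and 0.18 FPKM in CD4 T libraries.

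Col6a2 was the gene called higher in Th2, by 1.0 (SE 0.070, limma adjusted p = 0.00435). It had 1.0 and 1.05 FPKM in Th2 and 0.01 and 0.02 FPKM in CD4 T libraries. Its partner Col6a1 had 0.17 and 0.37 FPKM in Th2 and 0.01 and 0.03 FPKM in CD4 T libraries, a log2 difference of 0.31 (SE 0.125, limma adjusted p = 0.123). Chains were uneven here: the Col6a2 to Col6a1 ratio was 5.88 and 2.84 in the Th2 libraries. Col18a1 had 1.15 and 2.44 FPKM in Th2 and 0.32 and 0.37 FPKM in CD4 T libraries, a difference of 1.02 (SE 0.489, limma adjusted p = 0.171) that did not pass the test. Of 22 fibroblast markers tested, limma called 1 higher and 7 lower in Th2 over CD4 T cells. Over all genes 16.9% were higher and 38.1% lower, so the lower count is near the background. The higher one was Acta2, the smooth muscle actin, with 3.78 and 5.90 FPKM in Th2 and 0.44 and 0.40 FPKM in CD4 T libraries. Among the lower ones Tagln had 1.69 and 1.26 FPKM in Th2 and 6.08 and 6.55 FPKM in CD4 T libraries. Postn, Mmp2 and Ccdc80, also called lower, were at 0.23 FPKM or less in every library of both groups. Myeloid markers summed to 9.14 and 9.16 FPKM in Th2 libraries, below the CD4 T sums, and B markers to 4.33 and 6.29 FPKM; their part in the lower collagens was not tested.

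The last comparison asks what TSA changes in Th2 culture. Of the 25 genes tested, limma called 1 higher and 1 lower with TSA, where 9.26% of all 12907 genes were higher and 4.14% lower. Over all genes 69.1% of calls were in the higher direction, against 53.8% after quantile normalization. Col9a3 rose by 0.86 (SE 0.043, limma adjusted p = 0.0251), with the Th2 + TSA mean at 4.34 times the Th2 mean. Col6a2 fell, with 0.09 and 0.19 FPKM in Th2 + TSA and 1.0 and 1.05 FPKM in Th2 libraries, a log2 difference of -0.83 (SE 0.057, limma adjusted p = 0.0282) and a Th2 mean 7.32 times the Th2 + TSA mean. Neither pair of groups overlapped. Both calls rest on 2 libraries a group: Col6a2 lost its call without any 1 of the 4 libraries, at adjusted p between 0.0534 and 0.207, and Col9a3 kept it without Th2 + TSA replicate 1 (adjusted p = 0.0473) but not without Th2 + TSA replicate 2 (adjusted p = 0.0745), Th2 replicate 1 (adjusted p = 0.193) or Th2 replicate 2 (adjusted p = 0.207).

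Col11a2 had 3.80 and 6.16 FPKM in Th2 + TSA and 1.53 and 1.73 FPKM in Th2 libraries, a mean 3.06 times higher with no overlap. Its log2 difference of 1.16 did not pass the test (SE 0.241, limma adjusted p = 0.0721); it passed in a fit to the 4 Th2 libraries alone (adjusted p = 0.0138), and over all alternatives the adjusted p ran between 0.000947 and 0.27. Col6a1 had 0.02 and 0.10 FPKM in Th2 + TSA and 0.17 and 0.37 FPKM in Th2 libraries, a difference of -0.26 (SE 0.102, limma adjusted p = 0.184). Col23a1 had a difference of -0.30 (SE 0.069, limma adjusted p = 0.0807). Col15a1 and Col27a1 overlapped between the groups. B markers summed to 13.87 and 38.23 FPKM in Th2 + TSA and 4.33 and 6.29 FPKM in Th2 libraries, with each of the 5 genes higher in both Th2 + TSA libraries. Myeloid markers were low in both groups, with a median over the 9 genes of 0.065 FPKM in Th2 + TSA and 0.005 FPKM in Th2 cells. Emr1 set most of the difference in their sums, at 0.51 and 0.39 FPKM in Th2 + TSA and 6.42 and 5.66 FPKM in Th2 libraries. The part of other cells in these collagen values was not tested.

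**Figure D4:**
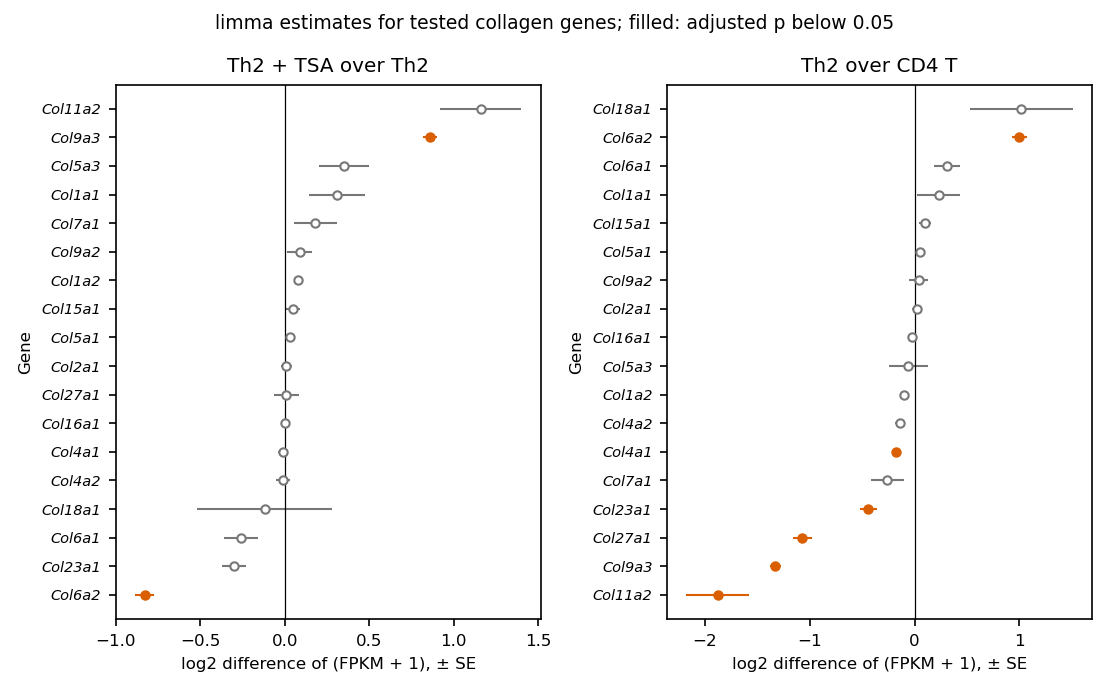
Points are log2 differences of (FPKM + 1) with bars of 1 SE, for the collagen genes limma tested and that were above 0 in either group; filled points have an adjusted p below 0.05. Col9a3 and Col11a2 lie to the right with TSA and to the left in Th2 over CD4 T cells, and Col6a2 does the opposite; the 2 comparisons share the Th2 libraries.

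The remaining 14 collagen genes were under 1 FPKM in every group and did not pass the filter. The highest group mean among them was 0.505 FPKM, for the fibrillar chain Col24a1 in ES cells. Col17a1, a membrane collagen of skin, had 0.34 and 0.35 FPKM in ES, and 0.38 and 0.39 FPKM in CD4 T libraries. Col19a1 was listed at 0 in ES libraries and had 0.10 and 0.13 FPKM in CD4 T libraries. Col8a2, Col10a1, Col26a1, Col28a1, Col4a6 and the rest stayed at 0.28 FPKM or less in every library. Of all 39 genes, 11 were at 0 in the 4 Th2 and Th2 + TSA libraries, among them Col3a1, Col5a2 and Col8a1; the Th2 files assign values to rows differently from the others, so a 0 there is given as listed and not as absence.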

How the data were processed

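The deposited files give 1 FPKM value per transcript row (fragments per kilobase of transcript and library size), a unit the authors had already divided by transcript length and library total. The build was mm10 and the tools were Cufflinks 2.0.2, TopHat 1.3.2 and Bowtie 0.12.8, per the submitters' processing notes. No source used here gives their settings, strand use or read numbers, so depth is unknown and no counting interval or count test was possible.

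A gene took its highest row. In total, 345 rows without a usable symbol were named through RefSeq accessions. The members and lists were chosen with earlier results of these data known. The 2 ES, the 2 CD4 T and the 2 B libraries differed by a robust SD of 0.041 to 0.045 log2 units. Genes were split into 5 classes by FPKM times length, and an apparent read depth was computed from the spread in each class. Sampling noise alone would give the same depth in every class. The highest depth was 1.37 (ES), 1.15 (CD4 T) and 1.13 (B) times the lowest, under a limit of 2, so each pair was averaged to 1 sample. The Th2 and Th2 + TSA pairs, with robust SDs of 0.269 and 0.313 and depth ratios of 12.7 and 11.5, were kept as 2 samples each. Differences are on log2(FPKM + 1), a scale that understates changes of low genes. limma 3.58.1 (R 4.3.3) was fitted to 7 samples with 2 residual degrees of freedom and a mean-dependent trend, over genes at 1 FPKM or more in at least 2 libraries. Its two-sided p-values carry a Benjamini-Hochberg adjustment over all genes tested, with a threshold of 0.05. The fit takes a single ES, CD4 T or B sample to have the variance of the Th2 samples. Comparisons among ES, CD4 T and B had 1 sample a side and no test: a log2 difference of 2 or more, with the higher group at 5 FPKM or above, is given as a size.

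In the 4 Th2 files 1322 of 1326 symbols with several rows above 0 had equal values in all of them, against 46 of 1434 in the 6 other files, and 20 rows at 0 in every Th2 file were above 10 FPKM in every other file. The files thus differ in how values were assigned to rows. Genes at 0 in all 4 Th2 files or in all 6 others were given no difference between a Th2 group and ES or CD4 T cells. The limma step was run on simulated data for Th2 + TSA over Th2 alone. The genes changed there all had higher Th2 levels than any collagen, so it does not bear on calls at collagen levels. Alternatives were other pseudocounts, row sums or means, median-ratio and quantile scaling, other filters and thresholds, 10 separate samples, a block for the experiment number, and leaving out each library. Named were members at 5 FPKM or more in a group or called in a Th2 comparison, and up to 6 genes by highest group mean from each other list. Figures were drawn with matplotlib 3.10.9.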

Additional observations from a re-analysis of the deposited data

How the results depend on the processing

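Of the collagen and detection counts recomputed under alternatives, 166 stayed within 1.5 times and 32 moved. Some settings could hardly move a count, such as leaving out 1 library of an ES, CD4 T or B pair. In a limma fit of all samples, lower calls were 4 for ES over CD4 T and 3 for ES over B, and CD4 T over B had 4 higher and 2 lower; a size of log2 1 gave 1 higher gene for CD4 T over B. Without the low-value filter, ES over Th2 had 23 higher, Th2 over CD4 T 10 lower and Th2 + TSA over Th2 2 higher. A pseudocount of 0.1 left 1 lower gene for ES over Th2. With 10 separate samples Th2 over CD4 T had 3 higher, and Th2 + TSA over Th2 had 3 higher and 3 lower. Median-ratio scaling left 3 lower for Th2 over CD4 T. Quantile normalization gave 6 higher there and 3 lower for Th2 + TSA over Th2. It also reversed Col27a1 (-0.13) and Col9a3 (-0.06) for ES over Th2, and Col23a1 (0.22) and Col4a1 (0.06) for Th2 over CD4 T. This scaling moved the median log2 difference of all genes to 0.01 for ES over Th2, against 0.41 as deposited, and to -0.01 for Th2 over CD4 T, against -0.28. The 4 Th2 libraries alone gave 2 higher genes with TSA. At 5 FPKM, 0 collagens were detected with Th2 + TSA, 0 in Th2, 1 in CD4 T and 0 in B cells. The cause of these shifts was not tested, beyond the genes and samples each setting adds or removes.

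Leaving out each library in turn gave 1 to 2 lower genes for ES over Th2, 3 to 5 lower for Th2 over CD4 T, and 0 to 1 higher and 0 lower for Th2 + TSA over Th2. Over all genes the limma count with TSA was 1195 higher and 534 lower with all libraries, 0 and 0 without either Th2 replicate, 259 and 14 without Th2 + TSA replicate 1, and 10 and 0 without Th2 + TSA replicate 2. It was 3902 and 2872 with 10 separate samples, and 570 and 201 without the filter. Adjusted p over all alternatives ran between 5.45e-05 and 0.207 for Col9a3 and between 2.26e-05 and 0.207 for Col6a2 with TSA, and between 0.000947 and 0.27 for Col11a2. Experiment numbers are shared by the Th2 and Th2 + TSA libraries, and same-numbered libraries deviated together over 10225 genes (r = 0.61), but 2 pairs do not show pairing. With the experiment number as a replicate block, Th2 over CD4 T had 3 higher collagens, and the collagen counts of the other limma comparisons were as before. Depth is unknown, so values near 0 FPKM have no limit of detection.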

Other observations

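Receptors for collagen were measured in the same libraries. Of 9 collagen receptor genes tested by limma, 7 were lower and 0 higher in Th2 over CD4 T cells, and 2 were higher and 0 lower in Th2 + TSA over Th2 cells. Over all genes 38.1% were lower and 16.9% higher in the first comparison, and 9.26% higher and 4.14% lower in the second. The 2 higher genes were Itga2 and Itga1, with log2 differences of 1.85 (limma adjusted p = 0.0282) and 0.58 (limma adjusted p = 0.0251). Both encode alpha chains of collagen-binding integrins. Itga10 and Itga11, the other such chains in the list, had log2 differences of -0.02 and 0.0 and were not called. Itga2, named after its values were seen, had 4.78 and 4.26 FPKM in Th2 + TSA and 0.68 and 0.4 FPKM in Th2 libraries. Itga1 had 0.59 and 0.58 FPKM in Th2 + TSA and 0.05 and 0.07 FPKM in Th2 libraries. Itgb1, the beta chain they share, had 94.98 and 69.13 FPKM in Th2 + TSA and 39.67 and 25.29 FPKM in Th2 libraries, a difference of 1.33 that did not pass the test (limma adjusted p = 0.0853). Ddr1, a receptor tyrosine kinase for collagen, had 8.74 and 18.66 FPKM in Th2 + TSA and 2.05 and 2.91 FPKM in Th2 libraries (limma adjusted p = 0.0767). Lair1, an inhibitory collagen receptor of immune cells, was lower in Th2 at 4.87 and 5.07 FPKM, against 14.78 and 14.84 FPKM in CD4 T libraries (limma adjusted p = 0.00849). Myeloid markers, which were also lower in Th2 than in CD4 T libraries, are given in the report; their part here was not tested.

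Among collagenases and gelatinases, 2 of 4 genes tested were higher in ES than in CD4 T cells by size, beside 11.9% of all genes, and Mmp14, the membrane-bound collagenase, led with 43.25 and 43.94 FPKM in ES libraries. Mmp2, a gelatinase, had 19.56 and 19.83 FPKM there. Of the 4 genes, 2 had passed the filter through the ES libraries alone. Mmp2 was 1 of them and so had to be higher in ES cells. Mmp9, the gelatinase of leukocytes, had 5.70 and 15.19 FPKM in Th2 + TSA and 1.0 and 1.65 FPKM in Th2 libraries, with no overlap (limma adjusted p = 0.0902). Of 30 tested genes for collagen synthesis, 3 were higher and 0 lower with TSA, near the 9.26% and 4.14% over all genes. These were Creb3l1, a transcription factor of procollagen production, at 2.43 and 3.34 FPKM in Th2 + TSA and 1.0 and 1.03 FPKM in Th2 libraries (limma adjusted p = 0.0467), Tmem38b, an ion channel of the endoplasmic reticulum (limma adjusted p = 0.0333), and Fkbp14, a prolyl isomerase. Fkbp14 was near the floor, at 0.05 and 0.05 FPKM in Th2 + TSA and listed at 0 in both Th2 libraries. Its log2 difference was 0.07. These 3 genes were named after their values were seen.

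Other marker lists give the levels against which the low lymphocyte collagens stand. Spleen stroma markers summed to 7.70 and 12.52 FPKM in Th2 + TSA and 0.60 and 0.77 FPKM in Th2 libraries, mostly from Mcam at 6.80 and 10.92 FPKM in Th2 + TSA and 0.6 and 0.69 FPKM in Th2 libraries. They summed to 2.68 and 3.10 FPKM in CD4 T and 3.91 and 4.07 FPKM in B libraries. Endothelial markers summed to 31.26 and 32.49 FPKM in Th2 + TSA, 44.84 and 52.47 FPKM in Th2, 91.86 and 92.12 FPKM in CD4 T, and 114.83 and 116.51 FPKM in B libraries, most of it Pecam1, which leukocytes also express. T markers were at 831.85 and 840.87 FPKM in Th2 + TSA and 760.67 and 779.20 FPKM in Th2 libraries.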
